A study of Homo sapiens with 8 samples.

Results

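The messenger RNAs of the cytosolic ribosomal proteins were read in foam cells made from THP-1, a human monocytic leukaemia line, with and without auranofin, a gold-containing drug that blocks thioredoxin reductase. A gene was taken when its symbol was RPL or RPS followed by digits and at most 1 letter (A, L or X), or was RPLP0, RPLP1, RPLP2 or RPSA. This found 81 genes among the 62700 rows of the count table, 49 for the large subunit (the stalk included) and 32 for the small subunit. All 8 libraries came from cells that PMA, a phorbol ester (50 ng/mL, 72 h), had made into macrophages and that acetylated LDL (AcLDL, 48 h) had then filled with lipid. The 4 FCs+DMSO libraries received the vehicle (DMSO, under 0.1% by volume) and the 4 FCs+AF libraries 0.5 µM auranofin (AF). Per the sample protocols the drug or vehicle was added 24 h before AcLDL and stayed on to the end, while the design text of the series has it follow the load. The labels do not say that libraries came from separate cultures, and every library shares its name stem with another library of its group. The p-values therefore speak only of the spread among these 8 libraries, part of which may be technical.

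A ribosome is built from ribosomal RNA and about as many different proteins as there are genes here, and nearly all of them are needed in equal numbers. Most of these mRNAs begin with a C followed by a run of pyrimidines, the terminal oligopyrimidine (TOP) start, through which the growth-sensing kinase complex mTORC1 and the RNA-binding protein LARP1 control their translation and stability. They are among the most abundant mRNAs of a cell. The comparison asks whether auranofin changed their levels in foam cells.

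Depth was 19336073 to 32325981 counts per library. Ribosomal RNA rows held 34.8% of the counts of AF replicate 1 and between 0.743% and 0.963% of the other 7 libraries, although all were poly-A preparations. All 10 macrophage markers looked at, among them CD14, CSF1R and TYROBP, reached 10 counts, with a summed level of 4514 to 5227 CPM (counts scaled to library size with edgeR's TMM factors) in DMSO and 3960 to 4482 in AF. None of the 3 T cell or 3 erythroid markers did. Of the 3 endothelial markers PECAM1 made up nearly all of the summed 299.7 to 327 CPM and CDH5 had at most 1 count.

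The ribosomal protein genes took between 5.68% and 6.50% of all counts in the DMSO libraries and 3.73%, 5.78%, 5.65% and 5.43% in AF replicates 1 to 4. With ribosomal RNA rows left out of the total, AF replicate 1 stood at 5.72%, and the shares were 6.15% ± 0.364 in DMSO and 5.68% ± 0.149 in AF (mean ± SD, n = 4 each). The summed level was 55237, 59859, 62207 and 52758 CPM in DMSO replicates 1 to 4 and 54968, 55442, 53548 and 51944 CPM in AF replicates 1 to 4. DMSO replicates 2 and 3 were the highest of the 8, and the other 2 DMSO libraries lay within the range of the AF libraries. Large and small subunit genes kept one proportion: their summed CPM stood in a ratio of 1.52 ± 0.018 in DMSO and 1.52 ± 0.014 in AF (SD, n = 4), between 1.50 and 1.54 in every library.

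**Figure D1:**
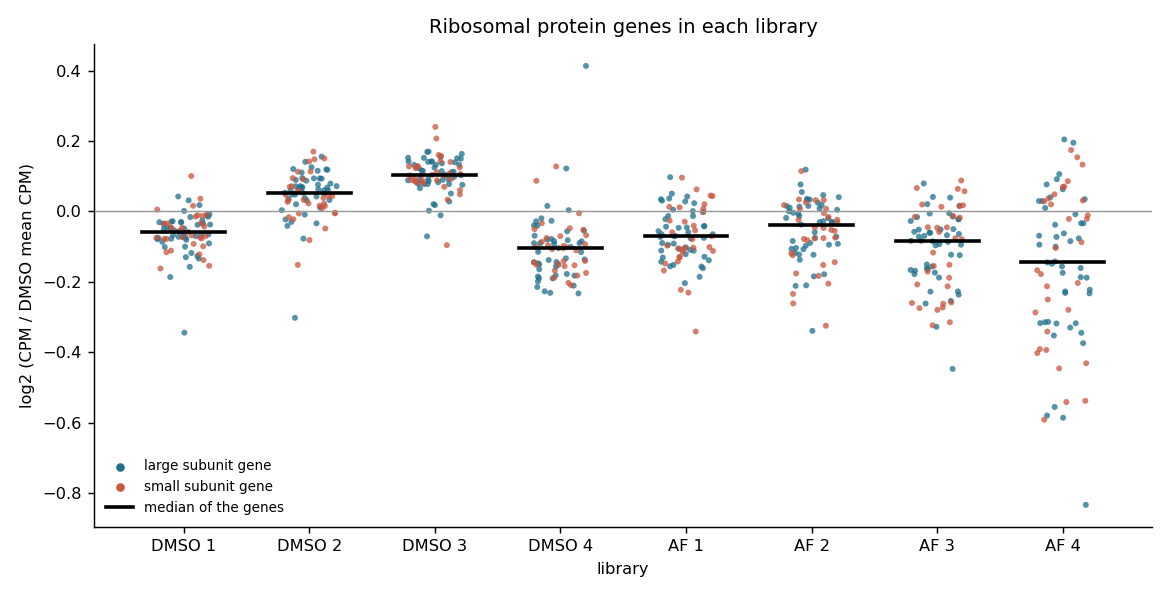
Level of each of the 79 tested ribosomal protein genes in each library, as log2 of its CPM over its own mean CPM in DMSO; points are genes (large subunit blue, small subunit red) and bars are medians over the genes. The medians of DMSO replicates 2 and 3 are above 0 (0.05 and 0.10) and those of the other 6 libraries are below it, and AF replicate 4 has the widest spread of genes, down to -0.83.

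In edgeR's quasi-likelihood test 4 of the 79 tested genes fell with auranofin (adjusted p under 0.05 over 17535 genes) and 0 rose. Of all genes tested 7.81% fell and 7.62% rose, so the share that fell among ribosomal protein genes, 5.06%, was not above the background in this fit. At an unadjusted p under 0.05, 17 were lower and 0 higher, where of all 17535 genes tested 2596 were lower and 2620 higher. DESeq2, the other tool run, called 15 lower and 0 higher. This is 19.0% of the 79, where 9.37% of all its genes with an adjusted p were lower and 9.30% higher, so how the share stands to the background depends on the tool. The median log2 fold change of the 79 genes was -0.07, against 0.01 over all genes tested, with 64 estimates below 0 and 15 above it. Estimates ran from -0.35 (RPL28) to 0.08 (RPS20). The AF and DMSO libraries did not overlap for 5 genes, all lower with AF (RPS2, RPS26, RPSA, RPLP1 and RPL23), against 9.68% of all genes lower and 9.86% higher. The 95% interval of the change lay within 1.25-fold in either direction for 58 of the 79 genes and within 1.5-fold for 78, the exception being RPL36A. RPL10L had 0 counts in every library and RPL3L at most 4, and neither passed the filter on low counts.

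**Figure D2:**
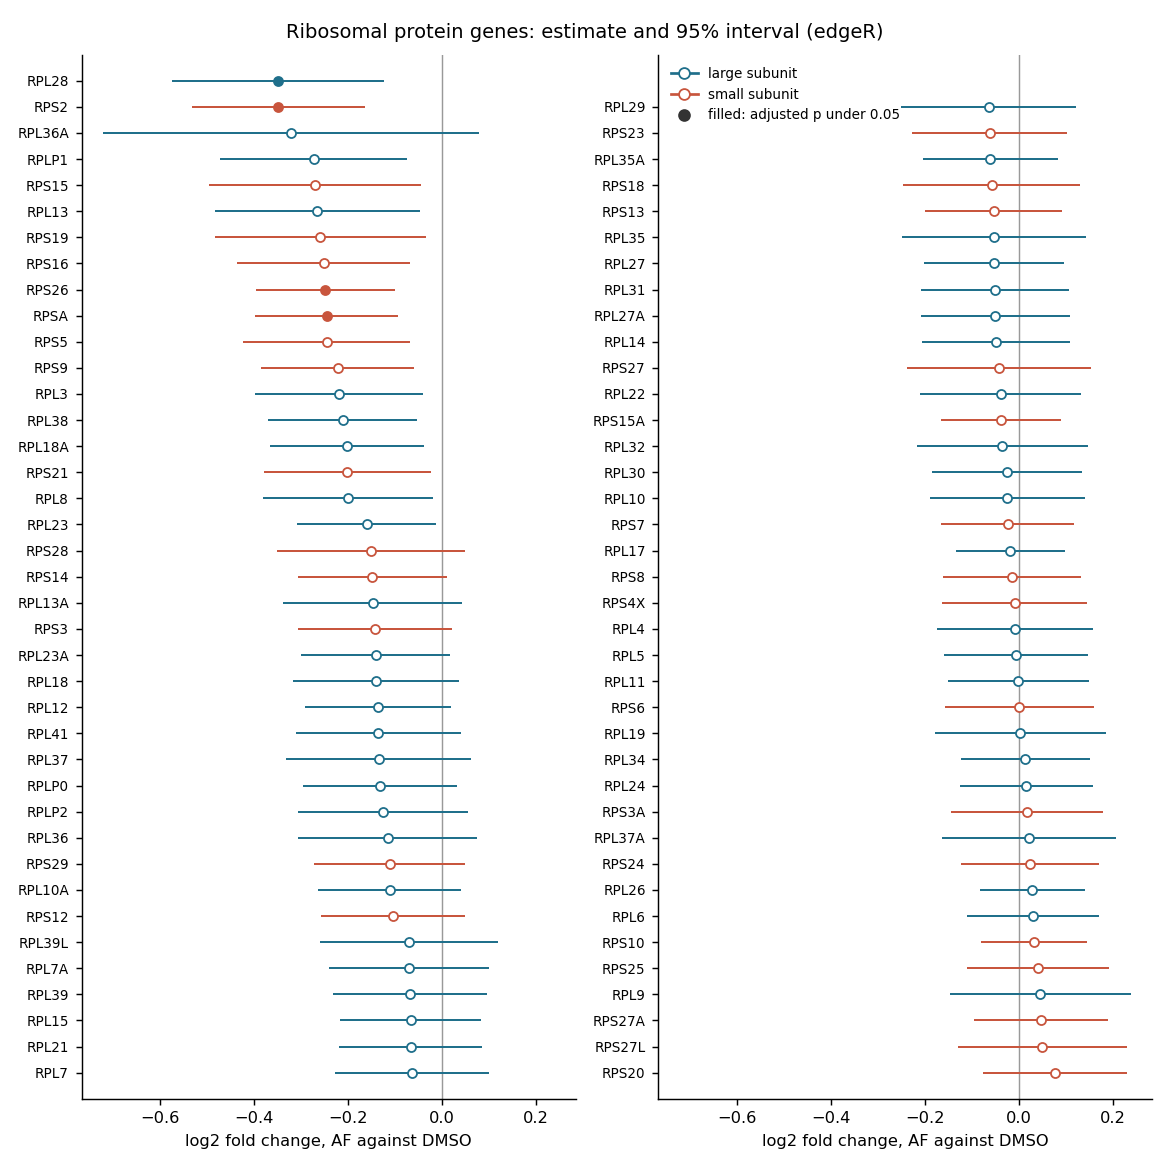
Log2 fold change of AF against DMSO for 77 of the tested ribosomal protein genes in order of size, with 95% intervals from edgeR (4 libraries per group); blue is the large and red the small subunit, and filled points have an adjusted p under 0.05. The 4 filled points are RPL28, RPS2, RPS26 and RPSA, and 62 of the 77 points are left of 0.

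Of the 4 genes that fell, 3 encode small subunit proteins. RPS2, a protein beside the channel through which mRNA enters the small subunit, stood at 1487, 1578, 1674 and 1389 CPM in DMSO replicates 1 to 4 and at 1305, 1223, 1231 and 1055 CPM in AF replicates 1 to 4. Every AF library lay below every DMSO library. RPS2 (ENSG00000140988.15, chromosome 16, 1962052 to 1964860, minus strand, GRCh38) fell by 21.4%, a log2 fold change of -0.35 ± 0.09 (SE), with an adjusted p of 0.0129 in edgeR. RPSA, which is both a small subunit protein and the precursor of a laminin receptor, stood at 746.6, 839.0, 826.5 and 738.1 CPM in DMSO and at 674.7, 683.0, 650.9 and 648.7 CPM in AF. Again the groups did not overlap, and RPSA (ENSG00000168028.13, chromosome 3, 39406689 to 39412542, plus strand) fell by 15.6%, a log2 fold change of -0.25 ± 0.07 (SE) with an adjusted p of 0.0276 in edgeR.

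RPS26, which lines the mRNA exit channel and touches the bases ahead of the start codon, stood at 89.6, 89.4, 98.7 and 84.1 CPM in DMSO and at 84.07, 76.9, 75.5 and 68.4 CPM in AF. The highest AF library was only just under the lowest DMSO library. RPS26 (ENSG00000197728.11, chromosome 12, 56041351 to 56044697, plus strand) fell by 15.8%, a log2 fold change of -0.25 ± 0.07 (SE) with an adjusted p of 0.0235 in edgeR. RPL28, a large subunit protein that bacteria lack, stood at 607.0, 738.1, 735.2 and 571.1 CPM in DMSO and at 582.7, 572.3, 486.0 and 441.5 CPM in AF. Its groups overlapped, since DMSO replicate 4 lay below AF replicates 1 and 2. RPL28 (ENSG00000108107.14, chromosome 19, 55385345 to 55403250, plus strand) fell by 21.5%, a log2 fold change of -0.35 ± 0.10 (SE) with an adjusted p of 0.0359 in edgeR.

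**Figure D3:**
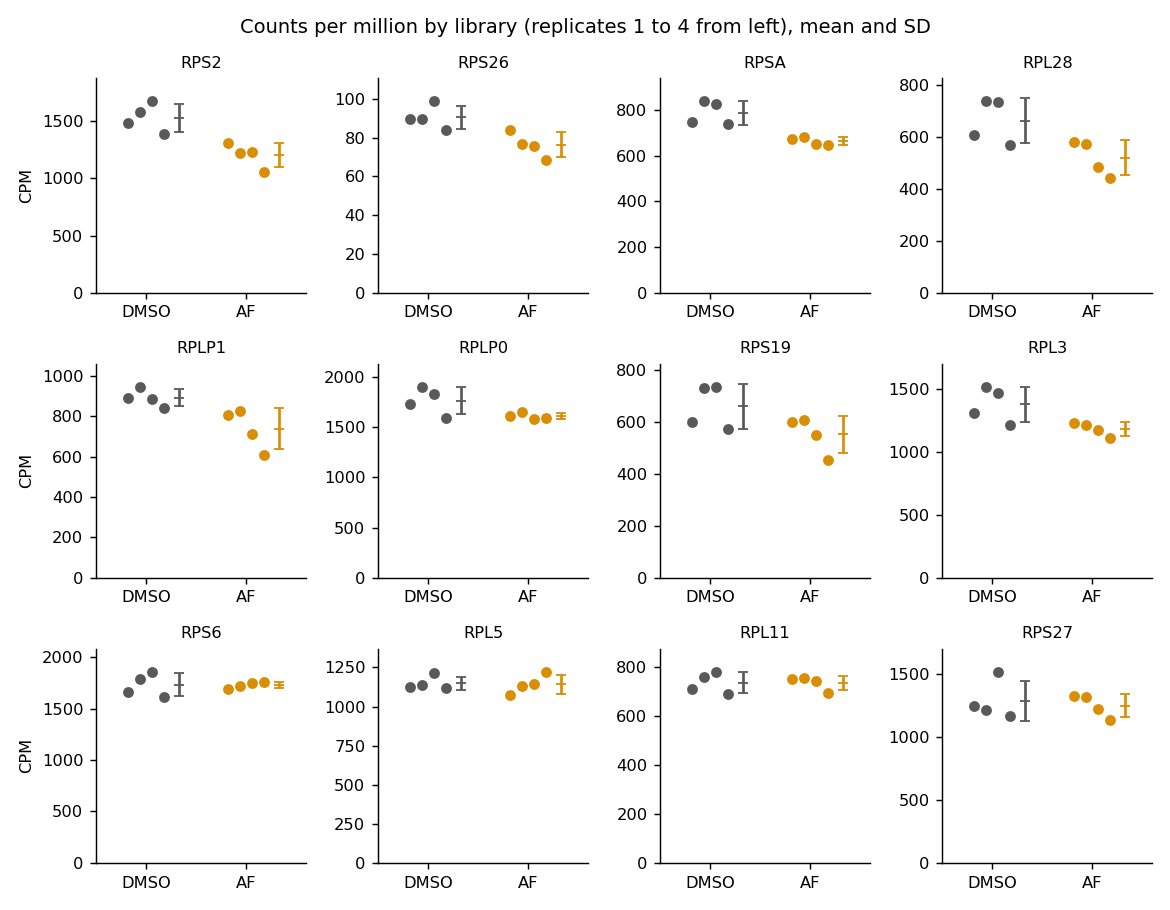
CPM of 12 ribosomal protein genes by library, DMSO grey and AF orange, with replicates 1 to 4 from left to right and the mean ± SD beside them; each axis starts at 0. In RPS2, RPS26, RPSA and RPLP1 all 4 AF points are below all 4 DMSO points, while RPS6, RPL5 and RPL11 have groups that overlap and means within 1% of each other.

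The calls, more than the sizes, depended on which libraries were in the fit. RPS2 passed in 7 of the 8 fits that left out 1 library, with log2 fold changes of -0.39 to -0.29. Without DMSO replicate 3 none of the 79 genes was called lower (9 at an unadjusted p under 0.05, with 4.81% of all genes called lower), and the adjusted p of RPS2 was then 0.0527. Without AF replicate 3 only RPS2 was called, while RPS26 and RPSA kept log2 fold changes of -0.24 and -0.23. Without DMSO replicate 2 only RPS2 and RPS26 were called. At an unadjusted p under 0.05, 15 genes were lower without AF replicate 3 and 9 without DMSO replicate 2. The share of all genes called in these fits is not given here, so their counts cannot be set beside a background. Leaving out AF replicate 4 ended the call of RPL28 (adjusted p 0.0684). Without AF replicate 1, the library rich in ribosomal RNA, 15 genes were called lower, the same 4 among them. That is 19.0% of the 79, against 8.20% of all genes. Over all 18 other settings all 4 log2 fold changes stayed negative. Every setting refits the libraries in which these genes were called, or part of them, so the kept sign is no independent evidence. Among these settings, the fits of replicates 1 and 4 alone and of 2 and 3 alone were chosen with these values in view. Without those fits, the adjusted p in edgeR or DESeq2 ran from 0.00012 to 0.126 for RPS2 and from 0.0054 to 0.174 for RPS26. It ran from 0.000512 to 0.271 for RPSA and from 0.000116 to 0.12 for RPL28.

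In DMSO, replicates 1 and 4 were both lower than replicates 2 and 3 for 64 of the 79 genes. The summed CPM of AF replicate 1 (54968) lay between those of AF replicates 2 (55442) and 3 (53548). By this sum the AF libraries did not divide as the DMSO libraries did. By a chi-square per degree of freedom over all genes, AF replicates 2 and 3 were nearest to each other (4.10). Replicate 4 lay further from both (18.1 and 10.8), and replicate 1, rich in ribosomal RNA, far from the other 3 (534.6 to 647.4). That measure covers all genes and does not show how the 79 divide. Replicates 1 and 4 of each group were fitted alone, and so were replicates 2 and 3, a choice made with these values in view. Because DMSO replicates 2 and 3 are the higher ones, a larger fall there follows from the choice, and the values are given as a description only. In replicates 1 and 4 alone 0 of the 79 genes were called lower (2 at an unadjusted p under 0.05), against 0.550% of all genes, with a median log2 fold change of -0.01. In replicates 2 and 3 alone 43 were, against 15.0% of all genes, with a median of -0.15. RPS2 had log2 fold changes of -0.29 and -0.40 in the first and the second fit, RPSA of -0.17 and -0.32, RPS26 of -0.19 and -0.30 and RPL28 of -0.21 and -0.48. The first fit includes the library rich in ribosomal RNA, whose part in these values was not tested.

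The starts of a few of these genes are shown to let the TOP run be read. The stretches run from 30 bases before to 15 bases after the RefSeq start (GRCh38.p14), 5′ to 3′ on the gene's strand, and capitals mark the longest run of pyrimidines at the start. RPSA, RPL28 and RPS26 are shown because they fell, RPS6 and RPLP0 because they carry the same kind of run and were not called, and RPS27L because it has none. RPS2, which also fell, had no promoter entry and is not shown. RPS27L is the variant copy of RPS27 and known as a p53 target.
RPSA, chr3:39406690-39406734, plus strand: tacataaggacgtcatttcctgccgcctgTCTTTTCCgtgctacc
RPL28, chr19:55385902-55385946, plus strand: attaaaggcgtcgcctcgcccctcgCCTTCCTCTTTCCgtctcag
RPS26, chr12:56041888-56041932, plus strand: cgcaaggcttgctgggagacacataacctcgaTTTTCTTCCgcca
RPS6, chr9:19380222-19380266, minus strand: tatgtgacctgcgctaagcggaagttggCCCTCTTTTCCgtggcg
RPLP0, chr12:120201097-120201141, minus strand: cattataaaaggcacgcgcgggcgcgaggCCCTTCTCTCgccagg
RPS27L, chr15:63157463-63157507, minus strand: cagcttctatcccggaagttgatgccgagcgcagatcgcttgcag
The run is 8 bases in RPSA, 13 in RPL28, 9 in RPS26, 11 in RPS6 and 10 in RPLP0. Counted from the listed start, it begins at position -1 in RPSA and RPLP0, -2 in RPS6, -5 in RPL28 and 3 in RPS26. Bases at negative positions lie before the listed transcript and are not part of its TOP start.

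A promoter entry was matched by symbol for 64 of the 81 genes. A TOP start (a C at the listed start followed by at least 4 pyrimidines) was read in 46 of them, 71.9%, against 5.14% of the 27305 genes with an entry. In the window from 250 bases before to 50 after the start, on either strand, CTTTCC was found in 46.9% of the ribosomal protein genes and 30.2% of all, CCGGAAG, which is the core to which ETS factors bind, in 35.9% and 12.2%, and AAGATGG, the core to which YY1 binds, in 12.5% and 7.11%. The 46 genes with a TOP start had a median log2 fold change of -0.06 with 2 called, RPSA and RPL28, and the 17 tested genes without one had a median of -0.03 with 1 called, RPS26. In RPS26 the run of pyrimidines begins 3 bases into the listed transcript, so it was not counted as a TOP start. RPS2, the other called gene, had no promoter entry and is in neither class. These are matches of letters at the listed starts, which were not read from these cells.

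By subunit, 1 of the 47 tested large subunit genes and 3 of the 32 small subunit genes were called lower, with medians of -0.07 and -0.08. The acidic stalk, which recruits and activates elongation factors on the large subunit, had estimates below 0 for RPLP0, RPLP1 and RPLP2, and edgeR called 0 of the 3 (1 at an unadjusted p under 0.05, and 1 by DESeq2). RPLP1 stood at 892.3, 947.0, 884.6 and 842.3 CPM in DMSO and at 807.3, 828.1, 710.3 and 606.5 CPM in AF. Its groups did not overlap, with AF replicate 4 the lowest, and its log2 fold change of -0.27 ± 0.09 (SE) had an adjusted p of 0.0598 in edgeR. RPLP0, the protein that anchors the stalk and is often used as a reference gene, had 1764 ± 134.0 CPM in DMSO and 1610 ± 28.5 in AF (SD, n = 4), with overlapping groups and an adjusted p of 0.26 in edgeR. RPLP2 had a log2 fold change of -0.12 ± 0.08 (SE).

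Near the decoding site and the mRNA entry, RPS2 was the 1 gene called of 4, and the median of RPS2, RPS3, RPS15 and RPS23 was -0.21, with 2 of the 4 called by DESeq2. Along the tunnel through which the new protein leaves, 0 of 8 genes were called (0 at an unadjusted p under 0.05, and 0 by DESeq2), with a median of -0.03. RPL39, a small protein of the tunnel wall, had 495.1 ± 51.0 CPM in DMSO and 472.5 ± 8.58 in AF (SD, n = 4). RPL3, which reaches into the peptidyl transferase centre, stood at 1311, 1519, 1467 and 1215 CPM in DMSO and at 1232, 1218, 1177 and 1109 CPM in AF. DMSO replicate 4 lay among the AF libraries, and the adjusted p of RPL3 was 0.0879 in edgeR. RPL10, which joins the large subunit late, near its tRNA sites, had a log2 fold change of -0.02 with a 95% interval from -0.19 to 0.14.

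RPL5 and RPL11 carry 5S ribosomal RNA into the large subunit and, when assembly fails, bind the p53 regulator MDM2. Of these 2 genes 0 were called (0 at an unadjusted p under 0.05, and 0 by DESeq2). RPL5 stood at 1124, 1141, 1212 and 1116 CPM in DMSO and at 1075, 1133, 1144 and 1223 CPM in AF, and RPL11 at 710.2, 759.6, 780.0 and 690.3 CPM in DMSO and at 750.7, 752.2, 743.2 and 693.1 CPM in AF. The groups overlapped in both, and the 95% interval ran from -0.16 to 0.15 for RPL5 and from -0.15 to 0.15 for RPL11. RPS6, whose protein is phosphorylated by the S6 kinases below mTORC1, stood at 1661, 1783, 1858 and 1616 CPM in DMSO and at 1694, 1723, 1753 and 1753 CPM in AF. All 4 AF libraries lay inside the DMSO range, and its 95% interval ran from -0.15 to 0.16.

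Of the genes mutated in Diamond-Blackfan anaemia, an inherited failure of red cell production, a list of 15 was read, and all 15 were tested. Of this list RPS26 was the 1 called, with a median of -0.05 over the 15. RPS19, the gene most often mutated in that disease, stood at 600.7, 732.6, 737.4 and 574.3 CPM in DMSO and at 599.1, 606.5, 551.2 and 454.2 CPM in AF. AF replicate 4 was the lowest and DMSO replicates 2 and 3 the highest, and the log2 fold change of -0.26 ± 0.10 (SE) had an adjusted p of 0.109 in edgeR.

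Levels between genes were compared as CPM per kilobase of 1 coding transcript model of GENCODE 29. Per kilobase the highest in DMSO was RPS27 (3581), a zinc-binding small subunit protein, followed by RPS18 (3485) and RPL41 (2003), which encodes the shortest ribosomal protein, and RPL30 (1586) was also among the highest, while the median of the tested genes was 823. None of these 4 was called. RPS27 stood at 1244, 1215, 1518 and 1165 CPM in DMSO and at 1326, 1314, 1219 and 1136 CPM in AF, so that its groups overlapped and DMSO replicate 3 stood above the rest. RPL41 had 939.5 ± 94.5 CPM in DMSO and 855.4 ± 41.4 in AF, and RPS18 had 2136 ± 252.6 and 2053 ± 46.7 (SD, n = 4). RPL30 had a log2 fold change of -0.02 ± 0.07 (SE). Models differ in length for reasons other than the protein: that of RPL37 is 7686 bases with 291 coding bases, and such genes come out low per kilobase.

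Among the lowest per kilobase were RPL10L, RPL3L, RPS27L (5.75, from a model of 6434 bases) and RPL39L (15.2). RPL10L and RPL39L are copies best known from testis, and RPL3L is the copy of RPL3 made in heart and skeletal muscle. With 0 counts RPL10L could have held up to 3 in any library without being seen. Of the 4 variant copies RPL39L and RPS27L were tested, and 0 were called (0 at an unadjusted p under 0.05, and 0 by DESeq2). RPL39L stood at 9.85, 10.01, 10.1 and 9.75 CPM in DMSO and at 9.02, 9.84, 8.78 and 10.2 CPM in AF, and RPS27L had 36.99 ± 3.56 and 38.3 ± 1.56 CPM (SD, n = 4).

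Reads of a ribosomal protein gene and of its processed copies are hard to tell apart. The table has 1587 rows named as pseudogenes of these genes, and their counts came to between 25.1% and 28.9% of those of the genes in each library. RPS3AP6 had 0.497 to 0.530 of the counts of RPS3A, RPL39P3 had 0.825 to 0.854 of those of RPL39, and RPL21P16 had 0.663 to 0.734 of those of RPL21. For RPL36A the pseudogene rows together held 19.6 to 48.4 times its 95 to 195 counts, for RPL17 5.15 to 5.91 times, for RPL21 2.77 to 3.06 times, for RPS26 1.66 to 2.12 times, for RPS3A 1.17 to 1.31 times, for RPL7 0.965 to 1.05 times, for RPL26 0.877 to 1.00 times, for RPSA 0.586 to 0.663 times and for RPS2 0.445 to 0.517 times. RPL28, with at most 0.0005 times, and RPLP1, with at most 0.0007 times, had hardly any counts in such rows. Of the 373 pseudogene rows tested 47 (12.6%) were called lower and 1 (0.268%) higher in edgeR, against 7.81% and 7.62% of all genes, with a median log2 fold change of -0.18, where the genes themselves had -0.07. RPS10 and RPL17 share 39.4% and 32.7% of their exon bases with read-through genes on the same strand, whose own rows had at most 5 and 10 counts. RPS2, a called gene, shares 25.6% of its exon bases with other genes on its strand, RPL36 17.6% and RPL13A 17.3%. Values of these genes, RPL28 and RPLP1 apart, are uncertain to the extent of these shares.

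The size of the change went with the base composition of the coding stretch. Over the 79 genes Pearson's r between log2 fold change and coding GC was -0.66, and over 12555 tested genes with a coding stretch it was -0.15. The points share 8 libraries and are not independent. The 39 genes above the median GC of 51.1% had a median log2 fold change of -0.14 and held all 4 called genes, 10.3% of them, where 11% of all genes above that GC were called lower. The 40 genes at or below it had a median of -0.04 and held none of the called genes, where 6.34% of all genes there were called lower. AF replicate 4 was the library in which the members differed most by GC: against the DMSO mean its median was -0.29 over the high-GC members and 0.01 over the low-GC members, and over all genes -0.14 and 0.17. Without it r was -0.46 over the 79 genes and -0.01 over all genes. In replicates 1 and 4 alone r was -0.52, in replicates 2 and 3 alone -0.64, and without AF replicate 1 -0.71. The split into replicates 1 and 4 and replicates 2 and 3 was chosen with the members' values in view. The part of base composition in the calls was not tested.

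**Figure D4:**
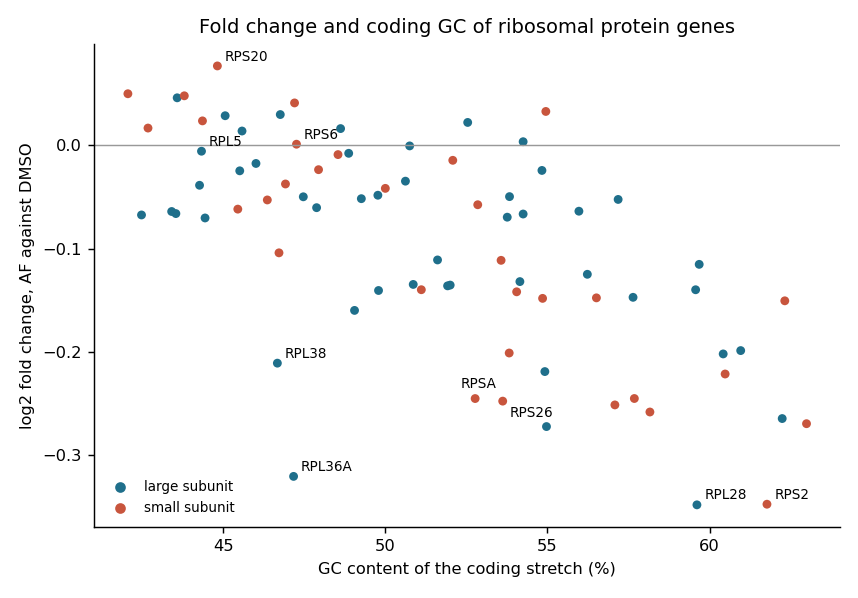
Log2 fold change of AF against DMSO (vertical) and GC content of the coding stretch in percent (horizontal) for the 79 tested ribosomal protein genes, blue for the large and red for the small subunit. The lowest points, RPS2 and RPL28 at -0.35, are of high GC (61.8% and 59.6%), and the gene of highest GC, RPS15 (63.0%), lies at -0.27. Genes of low GC lie nearer to 0, with RPL36A and RPL38 as exceptions at -0.32 and -0.21.

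Genes that work with the ribosomal proteins were read from 8 lists. The shares over all genes to set beside their counts are 7.62% called higher and 7.81% lower in edgeR. In DESeq2 they are 9.30% and 9.37% of genes with an adjusted p. The AF libraries lay above all DMSO libraries for 9.86% of all genes tested and below them for 9.68%. The 3 further ribosomal proteins outside the symbol rule were not called. Among them FAU, a ubiquitin-like fusion with a small subunit protein, had a log2 fold change of -0.13 ± 0.09 (SE) and RACK1, a scaffold on the small subunit, of -0.04 (0 at an unadjusted p under 0.05 in edgeR, and 0 by DESeq2). Of the 4 further copies outside the rule 0 were called (0 at an unadjusted p under 0.05, and 0 by DESeq2), among them RPL36AL, which encodes nearly the same protein as RPL36A, with 95.8 ± 7.73 CPM in DMSO and 103.7 ± 2.20 in AF (SD, n = 4).

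Elongation factors, whose mRNAs mostly share the TOP start, had 2 of 6 tested genes called lower and 0 higher. EIF5A, which helps ribosomes past stalling sequences, stood at 123.3, 124.1, 128.1 and 122.1 CPM in DMSO and at 94.7, 100.5, 95.3 and 86.8 CPM in AF. All AF libraries lay well below all DMSO libraries, with a log2 fold change of -0.40 ± 0.05 (SE) and an adjusted p of 0.000239 in edgeR, an estimate further below 0 than that of any ribosomal protein gene. EEF1B2, the exchange factor of eEF1A, fell by 0.25 ± 0.07 (SE) on the log2 scale with an adjusted p of 0.0324 in edgeR. EEF1A1 and EEF2, the factors that bring tRNA and move the ribosome along, had log2 fold changes of 0.09 and 0.01. Of 14 other mRNAs with a TOP start, 1 fell, that of the RNA-binding protein HNRNPA1 (976.2 ± 40.9 to 810.8 ± 26.0 CPM, SD, n = 4; log2 fold change -0.27 ± 0.07 SE, adjusted p 0.0149 in edgeR). In edgeR 0 of the 14 were called higher (4 at an unadjusted p under 0.05), DESeq2 called 3 higher and 1 lower, and in 3 the AF libraries lay above all DMSO libraries. Of the 14 estimates 10 were above 0, and the median was 0.06. Among 14 genes that host small nucleolar RNAs 0 were called (3 at an unadjusted p under 0.05, and 0 by DESeq2), EPB41L4A-AS1 being the one of smallest p with a log2 fold change of 0.26 ± 0.09 (SE) and an adjusted p of 0.0746 in edgeR.

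Of 15 genes of the mTORC1 axis and of TOP mRNA control, 2 rose and 0 fell in edgeR (3 lower at an unadjusted p under 0.05), and DESeq2 called 2 higher and 1 lower. Both that rose encode inhibitors of mTORC1. Other inhibitors in the list, TSC1, TSC2 and AKT1S1, were not called (log2 fold changes of -0.07, -0.12 and 0.10). DDIT4 (REDD1), which is induced by stress and acts through the TSC complex, stood at 52.1, 39.1, 35.1 and 47.4 CPM in DMSO and at 88.1, 81.5, 75.1 and 83.4 CPM in AF. SESN2, a leucine sensor induced by oxidative and amino acid stress, stood at 71.6, 48.1, 47.5 and 72.2 CPM in DMSO and at 99.4, 87.9, 81.6 and 85.8 CPM in AF. The groups did not overlap in either gene. The log2 fold change was 0.92 ± 0.10 (SE) for DDIT4 and 0.57 ± 0.12 for SESN2, with adjusted p of 3.42e-05 and 0.00657 in edgeR. LARP1, MTOR and RPTOR were not called (log2 fold changes of -0.09, -0.16 and -0.21). The activity of mTORC1 was not measured.

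Among 20 chaperones of ribosomal proteins and late assembly factors, 2 rose and 1 fell in edgeR. Of all genes tested 7.62% rose and 7.81% fell. DESeq2 called 2 of the 20 higher and 2 lower. GRWD1, the chaperone of RPL3, stood at 27.9, 36.6, 35.0 and 28.5 CPM in DMSO and at 22.9, 22.4, 22.0 and 21.4 CPM in AF, with a log2 fold change of -0.53 ± 0.10 (SE) and an adjusted p of 0.00372 in edgeR. NMD3, the adapter that carries the large subunit out of the nucleus, stood at 48.4, 47.2, 49.3 and 49.2 CPM in DMSO and at 56.2, 55.1, 58.6 and 62.7 CPM in AF, with a log2 fold change of 0.26 ± 0.06 (SE) and an adjusted p of 0.00878 in edgeR. In both genes the groups did not overlap. SBDS, which helps to release eIF6 from the new large subunit, also rose, by 0.23 ± 0.07 (SE) on the log2 scale with an adjusted p of 0.045 in edgeR. Of the 5 genes of the 5S particle and the MDM2 axis, 0 were called (1 at an unadjusted p under 0.05, and 1 lower by DESeq2). The nearest was RRS1, which loads the 5S particle, with a log2 fold change of -0.32 ± 0.11 (SE) and an adjusted p of 0.0557 in edgeR.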

How the data were processed

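The 8 foam cell samples (4 DMSO, 4 auranofin) gave stranded poly-A libraries from 250 ng of total RNA each, per the labels' protocols. The authors deposited raw counts per gene. Per the submitters' processing notes the tools were STAR 2.6.1d, featureCounts and Subread 1.6.3, and the build GRCh38. Not given in the sources used here are the annotation, the strand setting and how multi-mapped reads were treated. Counts were fitted as deposited in edgeR 4.0.16 (R 4.3.3): TMM factors, filterByExpr, glmQLFit and glmQLFTest over all 17535 genes kept, two-sided, Benjamini-Hochberg adjusted, threshold 0.05, all 8 libraries, no block. CPM use TMM-scaled totals. The alternatives were DESeq2 1.42.0, other scalings and filters, a replicate block, summed libraries, leaving out each library, and replicates 1 and 4 or 2 and 3 alone, chosen after seeing the data. The test was tried on simulated counts, with changes given to genes drawn from all those tested. It recovered 2% of 50 changes of 1.2-fold, 50% of 1.5-fold, 80% of 2-fold and 96% of 3-fold, with 14 false calls. Recovery among the ribosomal protein genes was not measured. Positions, lengths, coding GC and overlaps come from GENCODE 29, promoters from RefSeq (GRCh38.p14). Reads carry no described molecular identifiers and may repeat a molecule. The genes and lists were chosen with earlier results of these data known. Named were the called genes (up to 8 a direction), 15 genes whatever their result, up to 2 genes a list, and the 5 highest and 5 lowest per kilobase; any other gene was named with its values in view. Some genes that the rule names are left out of the text.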

Additional observations from a re-analysis of the deposited data

Results flagged for a closer look

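Of 60 groups of 4 libraries looked at, 2 had a library far from the other 3, and chance alone sets apart about 1 in 20. The first is RPL11 in AF, where replicate 4 had 693.1 CPM beside 743.2 to 752.2 in the other 3, a value inside the DMSO range of 690.3 to 780.0. The second is the share of ribosomal RNA rows in AF, 34.8% in replicate 1 beside 0.809% to 0.852% in the other 3.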

How the results depend on the processing

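No ribosomal protein gene was called higher in any of the 18 other settings, and no called gene changed sign. All settings draw on the same libraries, so the kept sign is no independent evidence. The number called lower, 4 as reported, moved widely. It was 15 with DESeq2, 9 with at least 10 counts in each library, 13 with no filter on low counts, 8 with TMM factors computed without ribosomal RNA and mitochondrial rows, 16 with library totals without those rows, and 0 with library totals alone, where the ribosomal RNA of AF replicate 1 enters the scale. It was 0 in replicates 1 and 4 alone and 43 in replicates 2 and 3 alone, a split chosen with these values in view, from which a larger fall in replicates 2 and 3 follows. Leaving out 1 library gave 0 (without DMSO replicate 3) to 15 (without AF replicate 1). For a setting whose share of all genes called lower is not given here, the count cannot be set beside a background. The median log2 fold change of -0.07 became -0.21 with library totals alone, a scaling that put the median of all genes at -0.15, and was -0.0091 in replicates 1 and 4 alone and -0.15 in replicates 2 and 3 alone; leaving out 1 library gave -0.11 to -0.04. Summing libraries that share a name stem left 3 genes called lower. RPSA then had a log2 fold change of -0.24 with an adjusted p of 0.0623 in edgeR. Over all settings the 22 named genes lost a call 19 times and gained one 26 times, and a log2 fold change called in neither fit changed sign in 32 of 298 cases. The share of counts in AF had a mean of 5.15%, and 5.68% without ribosomal RNA rows. Whether equal replicate numbers mark pairs was not settled by the labels or the counts: deviations of same-numbered libraries correlated at 0.0937, 0.129, 0.0288 and 0.192, all above 0 but not all over 0.1, and 3 of the 4 AF libraries correlated best with their own number. With the replicate number as a block 17 genes were called lower. Beyond the named settings the cause was not tested. With 4 libraries per group, 58 of the 79 intervals lay within 1.25-fold.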
